A study of Homo sapiens with 2 samples.

Results

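Aldehyde dehydrogenases are enzymes that oxidise aldehydes to acids with NAD or NADP, and their transcripts were compared here between untreated and vorinostat-treated cells of the Hodgkin lymphoma line L-540. L-540 is an established cell line, often assigned to the T-cell lineage, and vorinostat is a hydroxamate inhibitor of histone deacetylases. Total RNA of 1 untreated and 1 vorinostat-treated culture was measured on 1 Affymetrix HG_U133A array each. The labels state neither dose nor time of treatment, both cultures came from the same line, and a single line limits what the arrays can stand for. The 10 genes described are ALDH18A1, ALDH4A1, ALDH6A1, ALDH2, ALDH1B1, ALDH9A1, ALDH8A1, ALDH3A2, ALDH3B1 and ALDH1L1, of 17 aldehyde dehydrogenase genes and 11963 genes that the array names by a single symbol. They were chosen by gene symbol, with results of these same arrays already known: each of the 10 had a signal of 99.1 or more on at least 1 array, and the highest signal of the other 7 genes was 74.9. The untreated-to-vorinostat ratios below are therefore descriptions, with no test.

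The family divides by substrate and place in the cell. In mitochondria, ALDH18A1 makes the precursor of proline, ALDH4A1 completes the breakdown of proline to glutamate, ALDH6A1 acts late in the breakdown of valine, and ALDH2 and ALDH1B1 oxidise acetaldehyde and other small aldehydes. Outside mitochondria, ALDH9A1 acts in carnitine synthesis and on amine-derived aldehydes, ALDH8A1 in the breakdown of tryptophan, ALDH3A2 and ALDH3B1 on long-chain and lipid-derived aldehydes, and ALDH1L1 on formyl-tetrahydrofolate.

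The promoters of 3 members are shown because these had the largest higher ratios among the 9 members whose ratio is not a bound, ALDH6A1 (1.88-fold), ALDH1B1 (1.69-fold) and ALDH18A1 (1.68-fold), and each has 1 listed start. These are ratios of the brightest probe set, and the other probe set of ALDH1B1 was 1.24-fold lower. The windows are the 250 bases before the start from RefSeq, build GRCh38.p14, 5′ to 3′ along the gene; ALDH6A1 lies at chr14:74084454-74084703 (minus strand), ALDH1B1 at chr9:38392452-38392701 (plus strand) and ALDH18A1 at chr10:95656712-95656961 (minus strand). Capitals mark the GC box GGGCGG and the CCAAT box, on either strand.
ALDH6A1: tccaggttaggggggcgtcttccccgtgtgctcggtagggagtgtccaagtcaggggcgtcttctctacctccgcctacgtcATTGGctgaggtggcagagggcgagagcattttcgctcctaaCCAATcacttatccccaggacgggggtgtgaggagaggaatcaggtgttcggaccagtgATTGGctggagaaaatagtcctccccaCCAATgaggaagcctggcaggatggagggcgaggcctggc
ALDH1B1: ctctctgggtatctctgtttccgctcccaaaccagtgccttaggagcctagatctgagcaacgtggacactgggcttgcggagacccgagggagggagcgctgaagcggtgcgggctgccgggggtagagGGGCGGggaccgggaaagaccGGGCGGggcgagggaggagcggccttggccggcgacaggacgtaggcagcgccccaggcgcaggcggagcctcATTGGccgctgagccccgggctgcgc
ALDH18A1: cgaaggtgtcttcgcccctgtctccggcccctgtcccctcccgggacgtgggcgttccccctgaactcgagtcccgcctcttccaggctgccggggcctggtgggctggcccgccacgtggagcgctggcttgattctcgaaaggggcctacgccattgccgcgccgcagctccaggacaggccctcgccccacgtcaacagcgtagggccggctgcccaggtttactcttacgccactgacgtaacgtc

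ALDH6A1 had 4 CCAAT boxes and 0 GC boxes in this window, ALDH1B1 had 1 CCAAT box and 2 GC boxes, and ALDH18A1 had 0 of either. Of 35116 windows of the same length in the table, 32.0% held a CCAAT box, 42.6% a GC box and 10.7% the TATA box TATAAA, each counted on both strands; the motifs do not overlap each other in the printed windows. At least as many CCAAT boxes as in ALDH6A1 were found in 0.874% of the windows. The table held 9 of the 10 members, all but ALDH2, in 13 windows, since ALDH1L1, ALDH3A2, ALDH3B1 and ALDH4A1 had 2 listed starts each. Of these 13, 6 held a GC box, 4 a CCAAT box and 1 a TATA box. The windows of ALDH18A1 and ALDH1B1 were rich in CpG (24 and 23 sites, against a median of 11 over all windows), ALDH6A1 was at that median with 11, and ALDH8A1 had 1. These matches describe letters in a window and do not show that a factor binds.

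The values are MAS5 signals, linear intensities that summarise the probes of a probe set. Trimmed by 2% at each end, the mean signal was 500.2 on the untreated and the vorinostat array alike. A signal of 68.9, the 40th percentile of all signals, was taken as the floor below which a level was not read, and 61.2% of the untreated and 58.8% of the vorinostat probe sets lay above it. Where both signals of a probe set fell below the floor it counted as not measured, and where 1 of them did the ratio is a bound. The 3′ to 5′ ratio of the ACTB control was 1.06 on the untreated and 1.24 on the vorinostat array. For the GAPDH control it was 0.86 and 0.85. The part of the ACTB difference in the ratios below was not tested. Of 9 Hodgkin cell markers, 7 lay above the floor on both arrays, and CCL17 and CCL22 were not measured. TNFRSF8 (CD30, 10777 and 3228), BATF3 (6200 and 1825), FSCN1 (1176 and 691), TRAF1 (1027 and 666) and FUT4 (335 and 218) were lower in the vorinostat array. IRF4 (12032 and 14699) and GATA3 (1174 and 1565) were higher. The sums below take the highest signal of each listed gene on the array, measured or not. For the Hodgkin list the sum was 32780 on the untreated and 22933 on the vorinostat array. T-cell markers were measured for 5 of 7 genes, with CD3D and CD7 not measured. The T-cell list's summed signal was 5461 and 1469 (untreated and vorinostat), most of it from CD247 (4463 and 942). B-cell markers were measured for 2 of 5 genes on the array, IGHM (1576 and 222) and PAX5 (313 and 127). The summed signal of the 5 was 1999 and 443, the untreated sum mostly from IGHM. The part of these marker differences in the ratios below was not tested. Of the hepatocyte markers, from a tissue rich in aldehyde dehydrogenases, ALB, APOC3, CYP2E1 and TTR were below the floor on both arrays, SERPINA1 was above it on both (198 and 103) and APOA1 on the vorinostat array alone (33.9 and 69.9), and the list's sum was 338 and 267.

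With 1 array per group there is no spread between replicates. The only spread at hand lies between probe sets of 1 gene on the same 2 RNAs. Over 2428 genes with at least 2 probe sets above the floor on both arrays, the log2 ratios of the brightest 2 differed by a median of 0.25 and by 0.67 at the 90th percentile, and went opposite ways in 21.1% of genes. The SD of 1 probe set derived from this was 0.29 on the log2 scale. It does not cover the difference between any 2 cultures.

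No member reached 2-fold on its brightest probe set, which stands for the gene here, ALDH2 being counted at its lower bound. The count was 0 of 10 at least 2-fold higher, against 3.77% of the 8277 measured genes, and 0 of 10 at least 2-fold lower, against 5.12%. With 10 genes, a share near either background gives less than 1 gene, so these counts say little. At least 1.5-fold higher were 3 of 10 (ALDH6A1, ALDH1B1 and ALDH18A1; 12.7% of all measured genes), and at least 1.5-fold lower was 1 of 10 (ALDH1L1; 15.5% of all measured genes). By sign, 7 of the 10 members were higher and 3 lower in the vorinostat array, where 47.0% of all measured genes were higher. The members were chosen with these signals known, so this count and the median below are no result about the family. ALDH2, above the floor on the vorinostat array alone, could only count as higher. The 2 other aldehyde dehydrogenase genes that were measured, ALDH5A1 and ALDH1A2, were lower. The median log2 ratio of the members was 0.52, with ALDH2 at its bound, and that of all measured genes was -0.04. The members' ratios ran from -0.70 to 0.91 on the log2 scale.

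**Figure D1:**
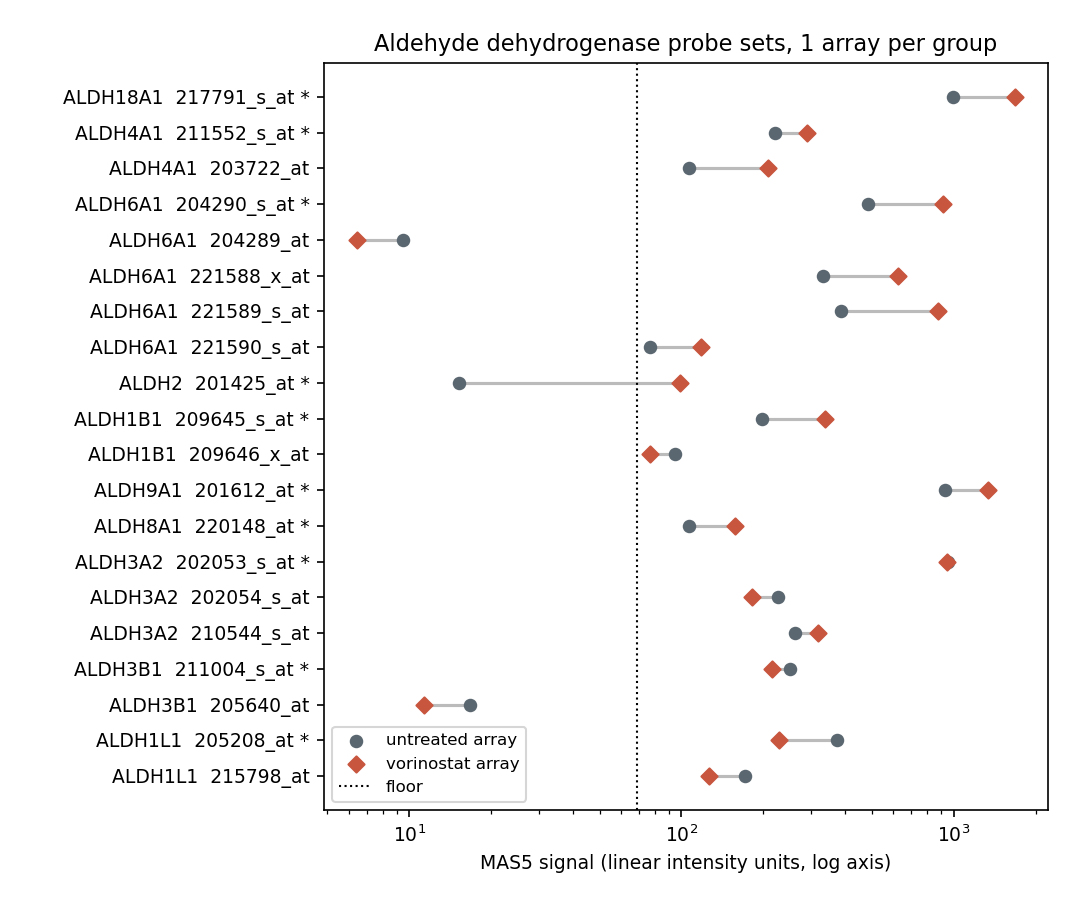
MAS5 signal (log axis) of the 20 member probe sets on the untreated array (circles) and the vorinostat array (diamonds), 1 array each; the dotted line is the floor of 68.9 and an asterisk marks the brightest probe set of a gene. The vorinostat signal lies to the right on the brightest probe sets of ALDH18A1, ALDH4A1, ALDH6A1, ALDH2, ALDH1B1, ALDH9A1 and ALDH8A1; signals of different probe sets are not comparable with each other, and 2 probe sets lie below the floor on both arrays.

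The enzymes of proline metabolism were both higher in the vorinostat array, but by less than 2-fold. ALDH18A1, the synthase that turns glutamate into the proline precursor, had signals of 997 (untreated) and 1676 (vorinostat) on its single probe set, 1.68-fold higher. ALDH4A1, which oxidises the same intermediate back to glutamate, went from 221 to 288 (1.31-fold higher) on the brighter of its probe sets and from 106 to 207 (1.95-fold higher) on its dimmer one. Both ALDH4A1 probe sets were thus higher, while their log2 ratios differed by 0.58, more than the median difference between 2 probe sets of a gene. Of 11 further genes of proline and ornithine metabolism, 7 were measured, with 1 at least 2-fold higher, 0 lower and a median log2 ratio of 0.31. The gene at least 2-fold higher was OAT, ornithine aminotransferase, which feeds the same intermediate and went from 394 to 837 (2.13-fold). Once probe sets with shared-sequence suffixes were left out the median was 0.90, a value that rests on OAT and PEPD alone. PYCR1, which completes proline synthesis after ALDH18A1, had signals of 407 and 327 (1.24-fold lower), and PRODH, which precedes ALDH4A1, was not measured. P4HA1, a prolyl hydroxylase subunit (1.67-fold), and PEPD, a peptidase that frees proline (1.64-fold), had higher signals, and PRODH2 a lower one (1.45-fold).

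ALDH6A1, methylmalonate semialdehyde dehydrogenase, had the largest ratio of the 10 members that was not a bound. Its brightest probe set went from 485 to 914 (1.88-fold higher). Its other measured probe sets went from 385 to 874 (2.27-fold), from 333 to 625 (1.88-fold) and from 76.6 to 118 (1.55-fold). All 4 were higher in the vorinostat array, and 1 of them passed 2-fold, while the fifth, with 9.45 and 6.42, was below the floor on both arrays. The 4 measured probe sets carry suffixes of shared sequence (_s_at or _x_at, for probes that can match several transcripts) and may read overlapping stretches of the same transcript, so they are not independent measurements. With both arrays scaled to equal medians, the brightest probe set was 2.06-fold higher.

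Of 20 genes of branched-chain amino acid breakdown, 18 were measured, 2 at least 2-fold higher, 1 at least 2-fold lower and 15 within 2-fold, with a median log2 ratio of 0.11. HIBCH, a hydrolase that acts shortly before ALDH6A1 on the valine path, went from 416 to 1037 (2.49-fold higher), and its other probe set had a log2 ratio of 1.69. ACAD8, the isobutyryl-CoA dehydrogenase of that path, went from 969 to 1637 (1.69-fold higher), and ECHS1, a hydratase it shares with fat oxidation, was nearly level at 1619 and 1747. PCCA, a subunit of the carboxylase that takes up the propionyl-CoA made by ALDH6A1, went from 118 to 271 (2.29-fold higher), whereas the other subunit, PCCB, went from 1846 to 1151 (1.60-fold lower). At the entry to the path, the transaminase gene BCAT1 went from 3679 to 1347 (2.73-fold lower), with both its probe sets lower. DBT, a subunit of the branched-chain ketoacid dehydrogenase, was 1.87-fold lower by its brightest probe set, while its other 2 measured ones were higher. ACAD8, ECHS1 and PCCB, like PYCR1 and PRODH above, are named for their place in a path, after their values were seen.

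**Figure D2:**
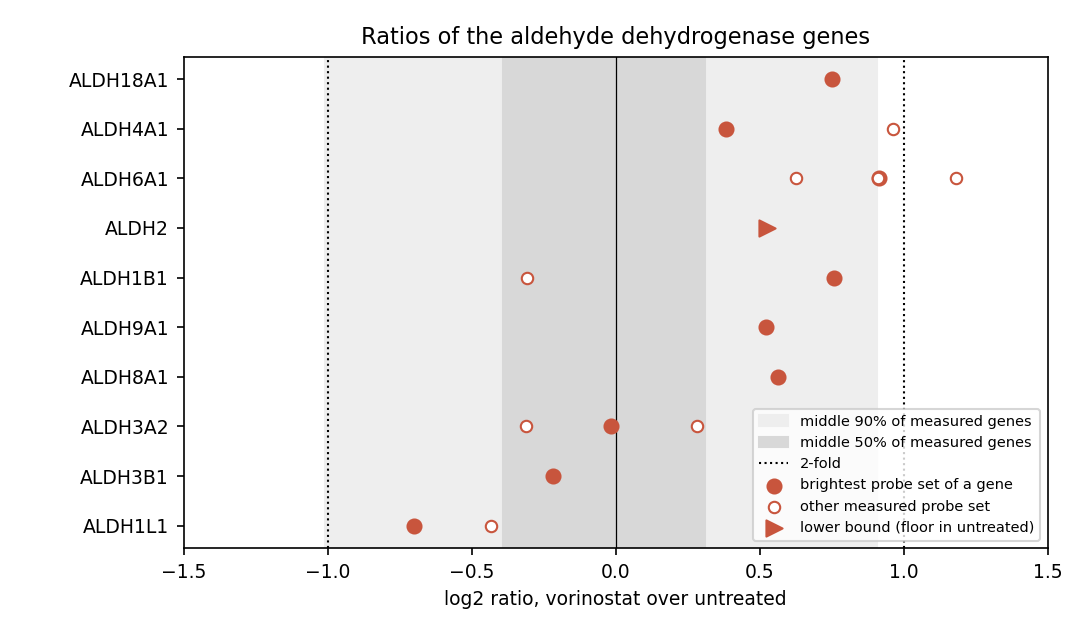
Log2 ratio of vorinostat over untreated signal for each member; filled points are the brightest probe set, open points the other measured ones, the triangle a lower bound, dotted lines 2-fold, and the grey bands the middle 50% and 90% of 8277 measured genes. The brightest probe set of ALDH6A1 (0.91) lies at the upper edge of the wider band, and those of ALDH3A2 and ALDH3B1 lie inside the narrower one.

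The acetaldehyde enzymes gave less certain ratios. ALDH2, the main mitochondrial enzyme for acetaldehyde from ethanol, had signals of 15.2 on the untreated and 99.1 on the vorinostat array from 1 probe set. The untreated signal was under the floor, so ALDH2 was at least 1.44-fold higher, and the bound moved with the floor, to 3.49-fold with a floor of 28.4. ALDH1B1, its close relative, went from 198 to 335 (1.69-fold higher) on the brighter of its probe sets and from 94.5 to 76.4 (1.24-fold lower) on its other one. The 2 probe sets went opposite ways and differed by 1.06 in log2 ratio, a gap exceeding 1 in 2.76% of the 2428 genes with such pairs. Their median log2 ratio was 0.23, so the direction of ALDH1B1 depends on the probe set. A further list of 24 genes held alcohol dehydrogenases and aldo-keto or carbonyl reductases, which make or clear aldehydes too. It also held other enzymes, among them GLO1, HAGH, ESD and GSTA4. Of the 24 genes, 12 were measured and 0 passed 2-fold either way, with a median log2 ratio of 0.05. These values do not describe the dehydrogenases and reductases alone. GLO1, which clears methylglyoxal, was 1.57-fold higher (6137 and 9631), and ADH5, which oxidises the glutathione adduct of formaldehyde, 1.33-fold higher (1415 and 1878). AKR1C1 was 1.37-fold higher by its brightest probe set, while the other measured one was lower, and CBR3 1.30-fold lower.

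ALDH9A1 and ALDH8A1 each had 1 probe set, with no second reading. ALDH9A1, which oxidises an aldehyde on the way to carnitine and also aminobutyraldehydes from polyamines, went from 930 to 1335 (1.44-fold higher). ALDH8A1, which oxidises an aldehyde intermediate of the kynurenine path, went from 107 to 158 (1.48-fold higher). The ALDH8A1 signals lay near the floor, and a floor raised to the 60th percentile left the gene unmeasured.

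Among 14 genes of carnitine synthesis and uptake and of amine-derived aldehydes, 9 were measured, with 2 at least 2-fold higher, 0 lower and a median log2 ratio of 0.12. That median turned to -0.37, with 1 gene at least 2-fold higher, both under a floor at the 60th percentile and without shared-sequence probe sets. Fewer of these genes were measured in either setting. The 2 higher genes as reported were ABAT, the GABA transaminase, from 73.1 to 228 (3.11-fold), and SAT1, the polyamine acetyltransferase, from 534 to 1539 (2.88-fold). The other measured probe sets of ABAT and SAT1 were higher too. SLC22A4, a transporter of the carnitine family, was 1.51-fold higher and the monoamine oxidase gene MAOA 1.60-fold lower. Of 11 genes of tryptophan and kynurenine breakdown, 5 were measured, with 1 at least 2-fold higher, 1 at least 2-fold lower and a median log2 ratio of -0.15. Under a floor at the 60th percentile the median was 1.23, with 0 genes at least 2-fold lower. There KYNU, IDO1, KMO and KYAT1 fell below the floor, so that value is the ratio of GCDH alone. Without shared-sequence probe sets the median was -0.49. KYNU, kynureninase, went from 206 to 77.2 (2.67-fold lower), and GCDH, glutaryl-CoA dehydrogenase, from 539 to 1267 (2.35-fold higher). IDO1, which opens the path, was at least 1.90-fold lower, and KMO at least 1.11-fold lower, both being under the floor in the vorinostat array.

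The enzymes of lipid aldehydes differed little between the arrays. ALDH3A2, the fatty aldehyde dehydrogenase, had signals of 955 and 944 by the brightest of its probe sets, a log2 ratio of -0.02 that turned to 0.11 with the arrays scaled to equal medians. Its other probe sets went from 226 to 182 and from 262 to 318, log2 ratios of -0.31 and 0.28. The 3 probe sets of ALDH3A2 thus lay on both sides of no change. ALDH3B1, which oxidises lipid-derived aldehydes at membranes, went from 251 to 216 (1.16-fold lower), and its other probe set, with 16.7 and 11.3, was below the floor on both arrays. The measured probe set of ALDH3B1 carries a suffix of shared sequence, and ALDH3B2, its near-identical neighbour in the family, was not measured. Of 16 genes of sphingolipid and fatty aldehyde metabolism, 9 were measured and 0 passed 2-fold, with a median log2 ratio of 0.29. The median turned to -0.11 when the offset replaced the floor, and under equal medians 1 gene was at least 2-fold higher. ASAH1, acid ceramidase, was 1.83-fold higher with its 3 measured probe sets all higher, SPTLC1, a subunit that starts sphingolipid synthesis, was 1.42-fold higher, and SPHK1, a sphingosine kinase, and CERS2, a ceramide synthase, were 1.60-fold and 1.56-fold lower.

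ALDH1L1, formyl-tetrahydrofolate dehydrogenase, was the member with the lowest ratio. Its brightest probe set went from 371 to 229 (1.63-fold lower) and its other one from 171 to 126 (1.35-fold lower). Both lay lower in the vorinostat array, their log2 ratios differed by 0.27, close to the median for such pairs, and neither name carries a suffix of shared sequence. Of 18 genes of folate one-carbon metabolism, 11 were measured, with 1 at least 2-fold higher, 0 lower and a median log2 ratio of -0.01. The higher one was GLDC, the decarboxylase of the glycine cleavage system, from 375 to 1044 (2.78-fold). GGH, which trims folate polyglutamates, was 1.62-fold higher, and TYMS, thymidylate synthase, and GART, of purine synthesis, were 1.73-fold and 1.39-fold lower, with every measured probe set of TYMS and GART lower.

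**Figure D3:**
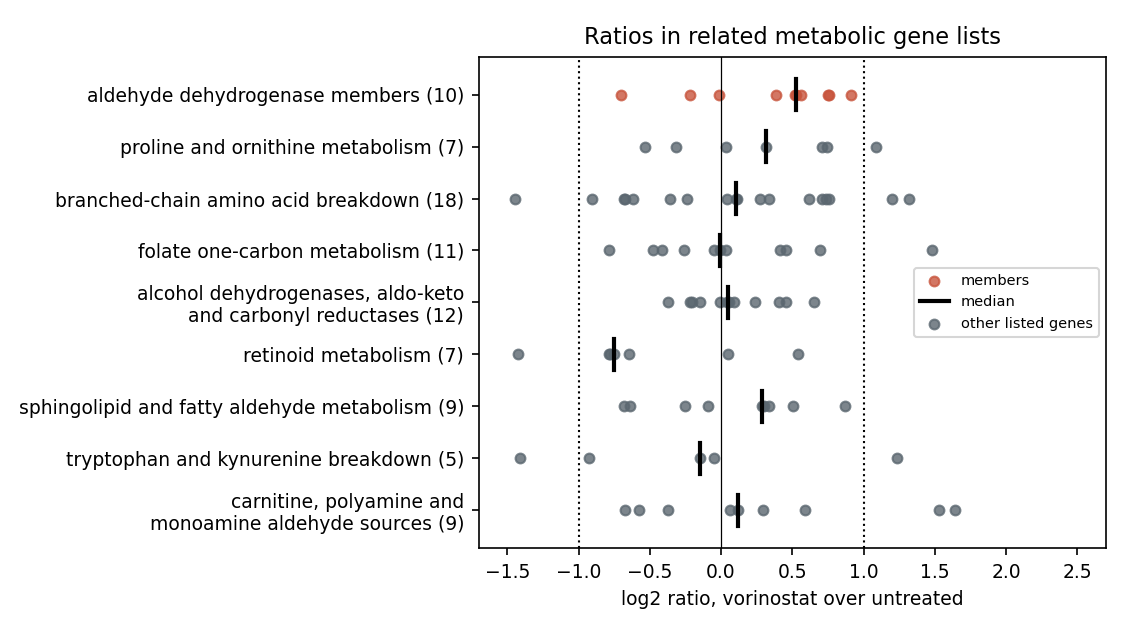
Log2 ratio of vorinostat over untreated for the 10 members and the measured genes of 8 related metabolic lists (number measured in brackets), each point the brightest probe set of a gene, bounds included, and the bar the median. Medians run from -0.75 for the retinoid metabolism list, where every lower gene encodes a receptor, to 0.52 for the members. In every list shown, points lie on both sides of 0.

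The members were also grouped by place in the cell, after the values were seen. All 5 mitochondrial members (ALDH18A1, ALDH4A1, ALDH6A1, ALDH2 and ALDH1B1) had higher signals on their brightest probe set in the vorinostat array. Of the other 5 members 2 were higher and 3 lower. ALDH2 could only count as higher, being above the floor on the vorinostat array alone. Aldehyde dehydrogenases outside the members were placed in neither group. Among them is ALDH5A1, also a mitochondrial enzyme, which was lower in the vorinostat array (74.9 and 59.3). The members were chosen with these signals known, so the split is no result about place in the cell. Across the 20 member probe sets, 18 were measured, 12 of them higher and 6 lower, and 1 was at least 2-fold higher. Of the 5 members with several measured probe sets, ALDH4A1, ALDH6A1 and ALDH1L1 went 1 way on all of them, and ALDH1B1 and ALDH3A2 went both ways. The other 5 members rest on 1 measured probe set each.

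The 7 further aldehyde dehydrogenase genes on the array lay below or close to the floor. ALDH1A1, a retinaldehyde dehydrogenase often used as a stem cell marker, had 1.19 and 4.03, and ALDH1A3, of the same subfamily, 10.0 and 5.89. ALDH3A1, ALDH3B2 and ALDH7A1 were likewise below the floor on both arrays on every probe set. ALDH5A1, succinic semialdehyde dehydrogenase, had 74.9 and 59.3 on its brighter probe set, and ALDH1A2, the third retinaldehyde dehydrogenase, had 74.6 and 39.2. These lay just above the floor on the untreated array, which bounds ALDH5A1 at 1.09-fold and ALDH1A2 at 1.08-fold lower at least. Taking the highest signal of each of the 10 members on either array, the lowest was the 99.1 of ALDH2, on the vorinostat array. Its untreated signal was 15.2.

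**Figure D4:**
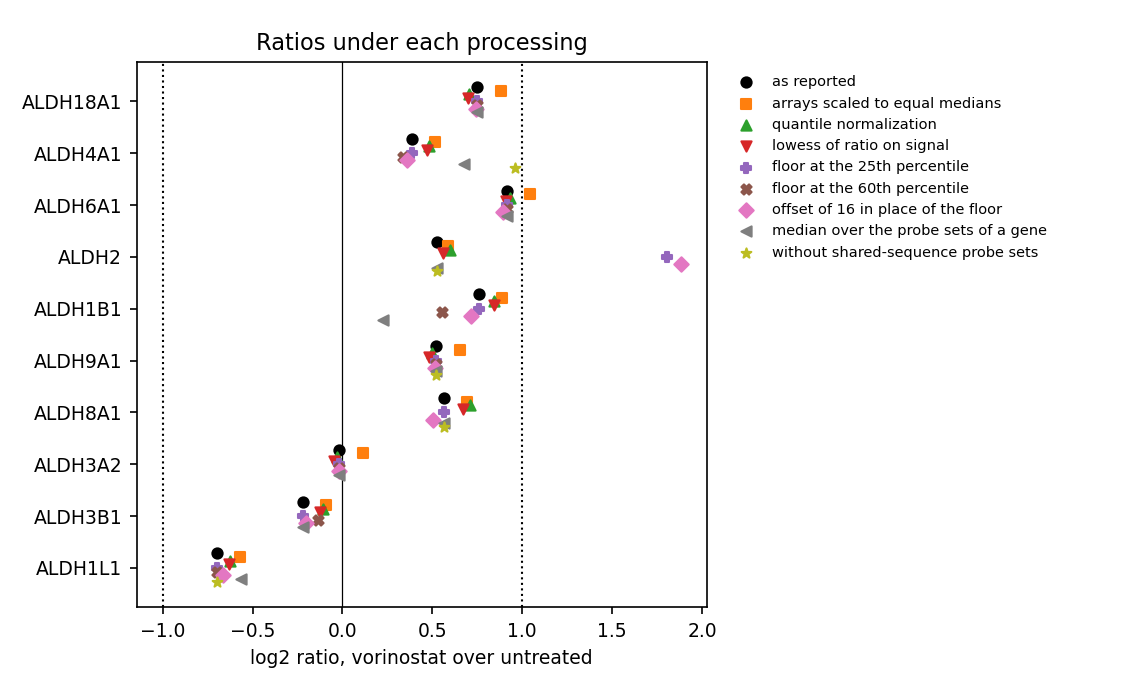
Log2 ratio of each member on the values as reported (black circles) and under 8 alternatives of scaling, floor, probe set choice and shared sequence; points of ALDH2 are lower bounds except with the offset, some points of ALDH1B1, ALDH4A1 and ALDH3B1 are bounds under the higher floor (60th percentile), and a missing point means that the gene was not measured. ALDH3A2 changes side under equal medians alone, ALDH6A1 passes 2-fold there, and ALDH2 passes it under the lower floor (25th percentile) and the offset.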

How the data were processed

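The deposited values were MAS5 signals, a linear intensity per probe set, made by the authors with MAS5 per the submitters' processing notes; no source used here gives its version, scaling target or detection calls. Biotin-labelled cRNA was hybridised to 1 array per group, per the labels' protocols. Of 22283 probe sets 68 were controls. Symbols came from the platform's annotation (19065 probe sets with 1 symbol, 1043 with several, 2107 unnamed); Entrez identifiers of 19053 were found in RefSeq (GRCh38.p14) and changed 0 symbols. Signals under the floor (40th percentile of pooled non-control signals) were set to it before log2, and a gene was represented by its brightest probe set (mean log2 signal over both arrays). No test was run. The members, the 9 gene lists and the markers were chosen with earlier results of these data known. All members and other aldehyde dehydrogenases were named, and in each other list the 4 measured genes with the largest absolute ratio, with exceptions marked in the text or named for their step in a path. Steps were tested on simulated data with changes of a single size, well over 2-fold, in genes well above the floor. Smaller changes and genes near the floor were not covered by that test. The steps were run with Python 3.11.15, pandas 2.3.3 and statsmodels 0.14.6 (lowess). Alternatives covered scaling, floor, offset, probe set choice, shared-sequence suffixes and fold.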

Additional observations from a re-analysis of the deposited data

How the results depend on the processing

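The direction of 9 of the 10 members held under every alternative that measured them. ALDH3A2 turned under equal medians, which raised the median log2 ratio of all genes by 0.12. For some members the alternatives could hardly show a turn. Wherever a floor was used, ALDH2 was under it in the untreated array and could only count as higher or unmeasured. No alternative read the lower probe set of ALDH1B1 alone. Leaving out shared-sequence probe sets left ALDH18A1, ALDH1B1, ALDH3A2, ALDH3B1 and ALDH6A1 unmeasured. Members at least 2-fold higher numbered 1 under equal medians (ALDH6A1), 1 under a lower floor (25th percentile) and 1 when an offset of 16 replaced the floor (ALDH2 in both), against 0 as reported. At 1.5-fold 3 were higher and 1 lower. Of the 8277 genes measured as reported, 312 were at least 2-fold higher and 424 lower. At 1.5-fold these were 1051 and 1283, and at 3-fold 45 and 77. At least 2-fold lower were 689 of 10100 measured genes under the lower floor and 251 of 5814 at the 60th percentile. Without shared-sequence probe sets they were 250 of 5176. With the offset 471 of 11963 were higher and 707 lower. The settings measure different numbers of genes, so these counts cannot be compared directly. Calls were 42.4% higher as reported and 58.8% under equal medians. Beyond the 0.29 SD of a probe set, ALDH2 moved to log2 bounds or values of 1.80 and 1.88 at the lower floor and the offset, ALDH1B1 to 0.23 with the median over probe sets and ALDH4A1 to 0.96 without shared-sequence probe sets. In the latter setting 5 members were measured, and at the 60th percentile 8, without ALDH2 and ALDH8A1. The moves of ALDH4A1, ALDH1B1 and ALDH2 come from the settings themselves. ALDH4A1 kept only its dimmer probe set, and ALDH1B1 took the middle of 2 probe sets that went opposite ways. The untreated signal of ALDH2 lies under the floor, so its ratio depends on the floor or offset. Why probe sets of a gene differ was not tested. No paired analysis was possible because each group had 1 array. The number of arrays limits precision.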

Other observations

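The retinoid list, which holds receptors and binding proteins besides enzymes, had the lowest median of the lists. Its lower genes, RARA, RARB, RARG, RXRB and STRA6, all encode receptors, so the median does not describe the enzymes. Of 21 genes, 7 were measured, 1 at least 2-fold lower and 0 higher, and the median log2 ratio was -0.75, against -0.04 over all measured genes. With the offset 4 genes were at least 2-fold lower and 1 higher, under the lower floor (25th percentile) 1 was higher, and without shared-sequence probe sets 0 were lower. RARA, a retinoic acid receptor, had signals of 2485 and 927 (2.68-fold lower), with each of its 4 probe sets lower. The partner receptor RXRB was 1.73-fold lower, with 3 of 3 probe sets lower, RARG 1.72-fold lower and the retinol carrier receptor STRA6 1.69-fold lower. On the other side, the retinoic acid binding protein gene CRABP2 was at least 1.45-fold higher, and the retinol dehydrogenase gene RDH11 was nearly level at 1920 and 1984. The retinaldehyde dehydrogenases ALDH1A1 and ALDH1A3 were below the floor on both arrays, and ALDH1A2 was above it on the untreated array alone. These values rest on 1 array per group and were not tested.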
